A study of Nothobranchius furzeri with 16 samples.

Results

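In whole brains of Nothobranchius furzeri, an annual killifish, 26739 genes were counted. Of these, 28 met a rule for a clearly higher level in every fish of the GRZ strain than in every fish of the MZM-0410 strain. They do not include 2 identifiers left out at the start. A gene was taken when its lowest level in 4 GRZ libraries was at least 2 times its highest level in 12 MZM-0410 libraries and its mean GRZ level was at least 1 CPM. CPM are a gene's count divided by the library's total count and multiplied by 1000000. The 28 genes were thus chosen by their CPM in the 2 strains, and the difference between strains is described below without a test. They make up 0.105% of the table and 0.153% of the 18321 genes with a mean of 1 CPM or more in GRZ. The opposite rule, with the strains exchanged, was met by 35 genes.

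The libraries came from whole brains of fasted fish killed at a fixed hour, with total RNA recovered from protein lysates and depleted of ribosomal RNA. GRZ was sampled only at 5 weeks post-hatching (wph), in 4 fish, and MZM-0410 at 5, 12 and 39 wph, in 4 fish each. The labels give no transgene and no treatment for any fish. The strains share an age only at 5 wph, and older GRZ brains were not analysed here. Total counts ran from 8804276 to 10645432 per library in GRZ, from 3931420 to 8241819 in MZM-0410 at 5 wph, from 5475421 to 9451019 at 12 wph and from 8267607 to 8740860 at 39 wph.

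GRZ is an inbred laboratory line descended from fish collected in Zimbabwe and is known for its short lifespan, whereas MZM-0410 was derived from wild fish of Mozambique and lives longer. Both belong to 1 species of temporary ponds, in which isolated populations have diverged in sequence. Lines of a species can differ in the RNA of a gene through its regulation, through gain or loss of a copy, or through sequence differences that change how reads align. The N. furzeri reference genome was assembled from GRZ, and reads of both strains were aligned to the same sequence. For each gene below, a difference in RNA and a difference in alignment between the strains cannot be told apart. In whole brains, fewer cells of a type and less RNA per cell cannot be told apart either.

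None of the 28 genes could be given a function. The gene identifiers of the count table were paired with a human orthologue for 5368 genes, 20.1% of the table, through the study's supplementary tables, some of which were held only in part. That share was 17.99% (1550 of 8617) among genes with a mean GRZ level from 1.5 to 20 CPM, and 0 of the 28. Of 19 genes whose lowest GRZ level was 1.5 to 2 times the highest MZM-0410 level, 2 had a name. The RefSeq annotation of the species held none of the identifiers of the count table, those of the 28 or of other genes. All genes are therefore given by identifier.

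Levels of the 28 genes in GRZ brains were mostly low. Their mean GRZ levels ran from 1.51 to 116 CPM with a median of 5.24 CPM. A mean above 50 CPM was reached by 2 genes, a mean of at least 10 CPM by 6, and the other 22 stayed under 10 CPM. In MZM-0410 the mean over 12 libraries ran from 0.0215 to 44.6 CPM with a median of 0.408 CPM, and 21 of 28 genes had a mean under 1 CPM. CPM are not corrected for gene length, so these levels say how many reads a gene drew and do not rank the genes by transcript abundance.

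**Figure D1:**
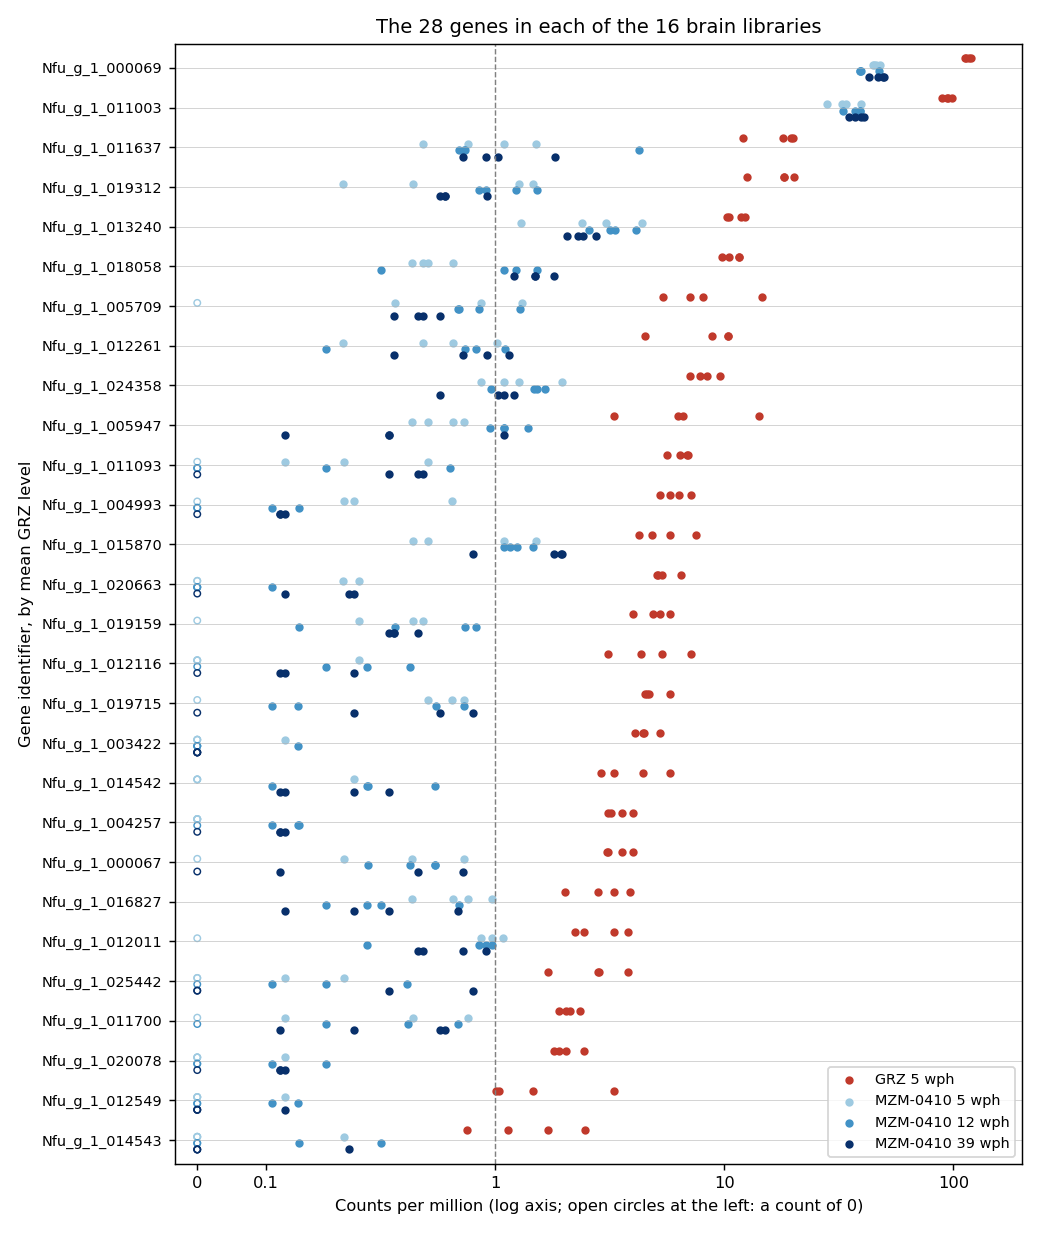
CPM (log axis) of the 28 genes in each library, with 1 point per library, genes ordered by mean GRZ level, open circles at the left for a count of 0 and a dashed line at 1 CPM. The 4 GRZ points (red) lie to the right of all 12 MZM-0410 points in every row because the genes were chosen so.

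The gap between the strains ranged from just past the chosen fold to far beyond it. The lowest GRZ level divided by the highest MZM-0410 level ran from 2.07 to 29.8, with a median of 4.18. It lay between 2 and 3 for 11 genes, between 3 and 5 for 5, between 5 and 10 for 9, and at 10 or above for 3. The ratio of the strain means ran from 2.59 to 211 with a median of 12.9. Here and below it sets GRZ at 5 wph against MZM-0410 at all 3 ages, so age differs as well as strain. Against MZM-0410 at 5 wph alone it was 78.3 instead of 37.1 for Nfu_g_1_012116, and 22.2 instead of 43.3 for Nfu_g_1_004993. Just inside the threshold were Nfu_g_1_012011 (ratio 2.07), Nfu_g_1_016827 (2.07) and Nfu_g_1_025442 (2.12). Just outside were Nfu_g_1_000160 (1.99), Nfu_g_1_006782 (1.87) and Nfu_g_1_013352 (1.85).

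The spread among GRZ fish differed from gene to gene. The highest GRZ library exceeded the lowest by a factor of 1.06 to 4.29, with a median of 1.41. The rule rests on the lowest GRZ library and so favours genes with a small spread. Other genes of like level were not compared. No GRZ library stood at the top throughout. Libraries 1, 2, 3 and 4 were the highest for 8, 8, 3 and 9 genes, and the lowest for 3, 11, 10 and 4 genes.

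A pair of genes drew most of the reads, and both were also read in every MZM-0410 brain. Nfu_g_1_000069 was at 114, 119, 112 and 117 CPM in the 4 GRZ libraries, a mean of 116 ± 3.18 (SD, n = 4). In MZM-0410 it was at 47.6, 44.4, 45.8 and 44.8 CPM at 5 wph, at 39.1, 47.1, 39.3 and 39.0 CPM at 12 wph, and at 42.8, 49.7, 49.2 and 46.8 CPM at 39 wph. The gene was read in every fish of both strains, so the difference was graded, with a ratio of strain means of 2.59. Nfu_g_1_011003 was at 94.0, 99.0, 89.1 and 95.1 CPM in GRZ, a mean of 94.3 ± 4.04 (SD, n = 4). Its MZM-0410 levels were 32.6, 27.9, 39.3 and 33.9 CPM at 5 wph, 38.9, 37.2, 32.9 and 38.9 CPM at 12 wph, and 40.7, 39.3, 35.1 and 37.3 CPM at 39 wph. Its ratio of strain means, 2.61, was close to that of Nfu_g_1_000069. For both genes the rule itself kept every MZM-0410 fish under the GRZ range.

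The 4 other genes with a mean of at least 10 CPM in GRZ were below 5 CPM in all MZM-0410 fish. The rule itself capped these levels, since the lowest GRZ level had to be at least 2 times the highest MZM-0410 level. Nfu_g_1_011637 was at 20.0, 18.0, 19.5 and 12.1 CPM in GRZ. In MZM-0410 it was at 0.763, 0.485, 1.51 and 1.09 CPM at 5 wph, at 0.731, 0.741, 4.25 and 0.692 CPM at 12 wph, and at 0.723, 1.81, 1.03 and 0.915 CPM at 39 wph. The 12 wph fish at 4.25 CPM, with 31 counts, stood apart from the other 11 and alone held the ratio of lowest GRZ to highest MZM-0410 level at 2.84, against a ratio of means of 14.2. Nfu_g_1_019312 was at 18.3, 18.1, 12.6 and 20.1 CPM in GRZ. Its MZM-0410 levels lay between 0.216 and 1.52 CPM with a median of 0.880 CPM, and the ratio of means was 19.6.

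Nfu_g_1_013240 was at 11.8, 12.3, 10.4 and 10.3 CPM in GRZ. It was at 3.05, 4.37, 1.30 and 2.39 CPM in MZM-0410 at 5 wph, at 2.56, 3.17, 4.11 and 3.32 CPM at 12 wph, and at 2.29, 2.06, 2.75 and 2.40 CPM at 39 wph. Like the pair drawing most reads it was present in all 12 MZM-0410 libraries at 1 CPM or more, at a ratio of means of 3.98. Nfu_g_1_018058 was at 11.6, 11.5, 9.77 and 10.5 CPM in GRZ, and its MZM-0410 values are given with the ages below.

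**Figure D2:**
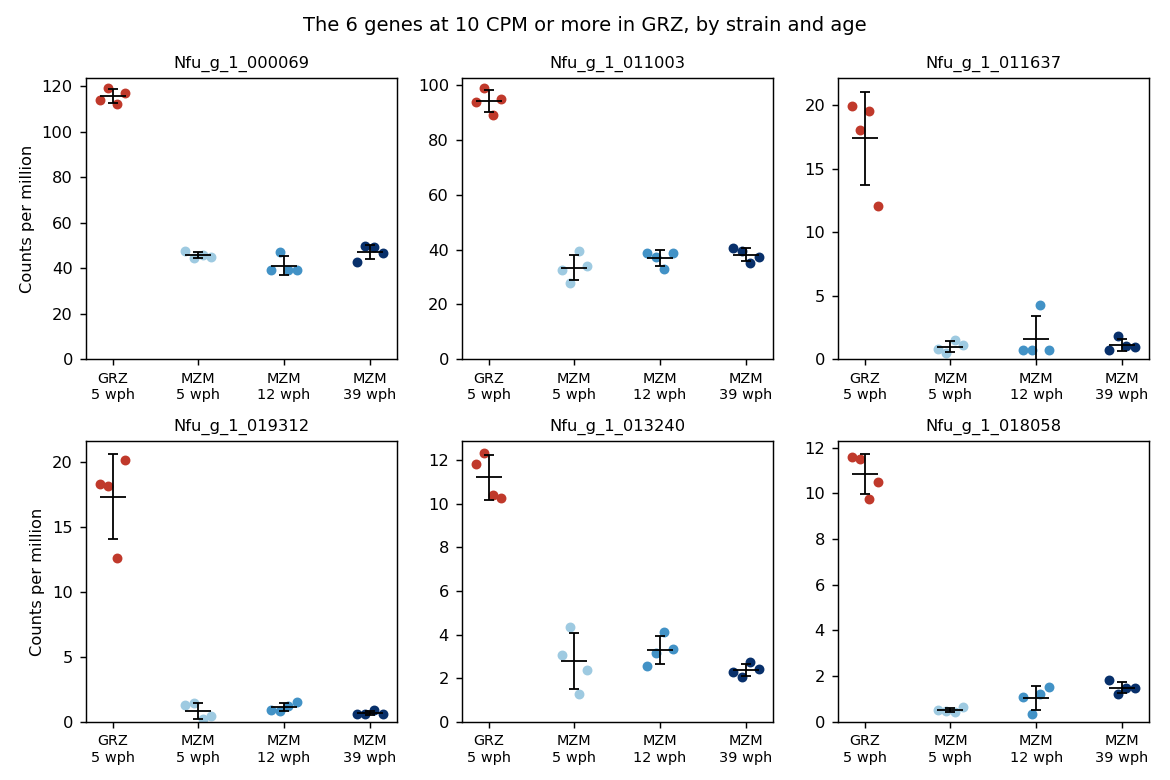
CPM of the 6 genes with a mean GRZ level of 10 CPM or more, by strain and age, with 1 point per fish, a black bar for the mean and whiskers of 1 SD (n = 4 per group, axes from 0, whiskers below 0 not drawn). Levels in MZM-0410 lie under GRZ at each age because the genes were chosen so. For Nfu_g_1_018058 the 4 fish at 39 wph (1.21 to 1.81 CPM) lay above the 4 at 5 wph (0.432 to 0.653 CPM, from 2 to 4 counts each). The share of all genes without overlap between these ages was not computed.

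The on and off pattern was read with a count of 0 as off and 1 CPM or more as on. All 28 genes were above 0 in the 4 GRZ libraries, with a lowest count of 8, and 27 were on in all 4. The exception, Nfu_g_1_014543, was at 0.751 CPM in 1 GRZ fish. In MZM-0410 no gene was off in all 12 libraries, 17 were off in at least 1, 6 were off in at least 6 and 11 were above 0 in every library. By level, 16 genes were on in no MZM-0410 library, 9 were on in some and 3 (Nfu_g_1_000069, Nfu_g_1_011003 and Nfu_g_1_013240) were on in all 12. Per library, 27 to 28 genes were on in GRZ and 5 to 9 in MZM-0410, while 17 to 26 were above 0 in MZM-0410. The rule used the same CPM, with a cap on every MZM-0410 level and a floor under the mean GRZ level. These on and off counts are therefore partly fixed by the choice of genes. Nfu_g_1_014543, for example, could not reach 1 CPM in any MZM-0410 library under the rule.

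The depth of the libraries limits what off can mean. A count of 0 allows a level of up to 0.317 CPM in the MZM-0410 library with the most counts and up to 0.763 CPM in the one with the fewest, taking 3 counts as the limit and covering counting error only. Counts of 0 made up 34 of 112 gene and library values at 5 wph, where 3 of the 4 libraries were the shallowest of all, and 20 of 112 at both 12 and 39 wph. Values of 1 CPM or more numbered 24, 30 and 26 at 5, 12 and 39 wph. An MZM-0410 brain without RNA of these genes was therefore not distinguishable from one with a low level.

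**Figure D3:**
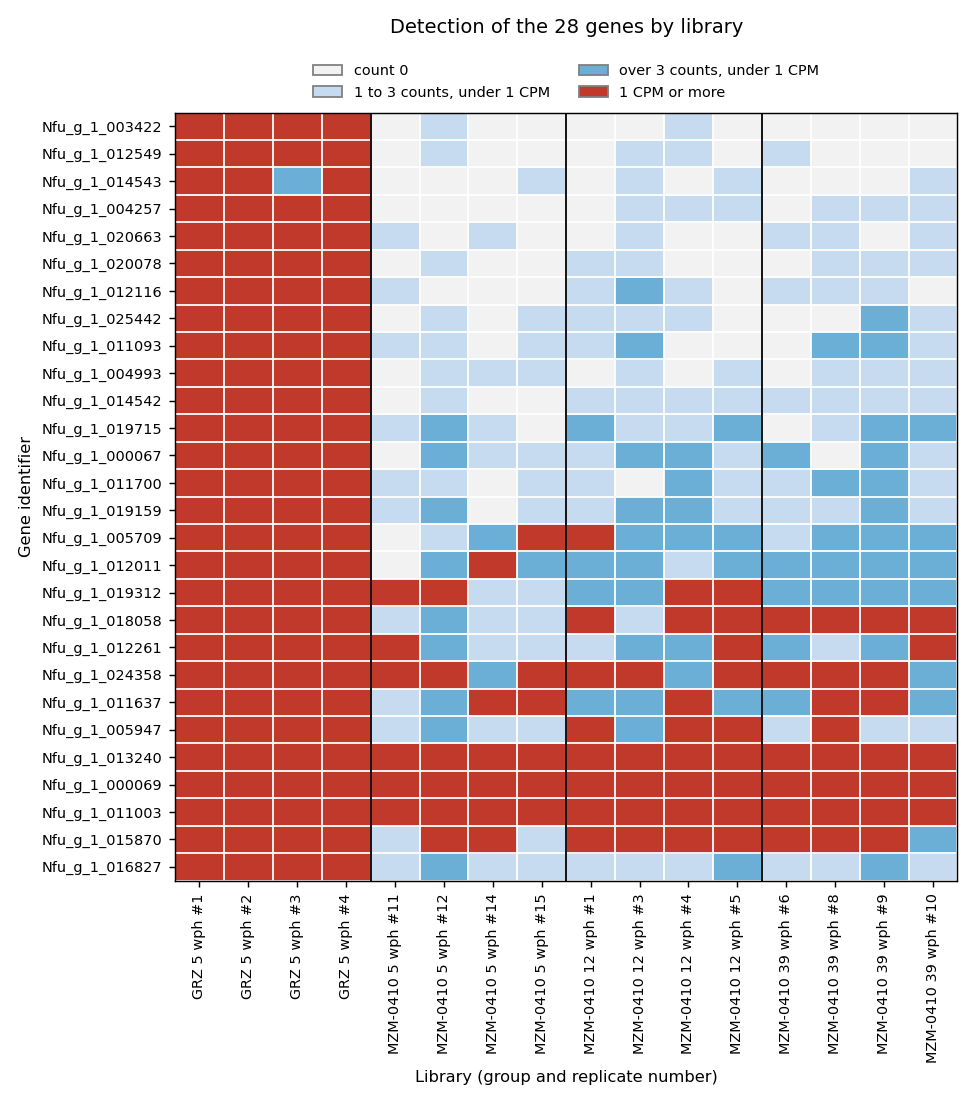
Detection of the 28 genes (rows, those with most MZM-0410 libraries at 0 on top) in the 16 libraries (columns, with replicate numbers), with white for a count of 0, light blue for 1 to 3 counts, mid blue for more than 3 counts under 1 CPM and red for 1 CPM or more. No row is white in all 12 MZM-0410 columns, and 3 rows are red in all of them.

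The 3 genes with the largest ratio of lowest GRZ to highest MZM-0410 level drew very few MZM-0410 reads. They were picked for that gap, which can inflate the ratios, intervals and fold bounds given for them. The pooled ratios set the fish and ages of a strain together. None of these values is a test of the strains. Nfu_g_1_003422 was at 4.09, 5.21, 4.42 and 4.47 CPM in GRZ. In MZM-0410 it had 1 count in a 5 wph library, 1 count in a 12 wph library and 0 in the other 10. Pooled over libraries this was 175 counts against 2, a ratio of 194 with a 95% counting interval from 52.8 to 1611, which covers counting error only. All 4 libraries at 39 wph were at 0. The pooled GRZ level, at 5 wph, was at least 51.7-fold higher than the level that 3 counts over that group allow. In this bound the age differs as well as the strain.

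Nfu_g_1_004257 was at 3.98, 3.21, 3.10 and 3.58 CPM in GRZ. It was at 0 in all 4 MZM-0410 libraries at 5 wph and never above 1 count in an older one, 132 counts against 6 in all, a ratio of 48.7 with a counting interval from 21.8 to 135. At the matched age of 5 wph GRZ was at least 24.5-fold higher than 3 counts over the group allow. Nfu_g_1_020663 was at 5.34, 5.11, 5.07 and 6.49 CPM in GRZ, and 6 of 12 MZM-0410 libraries were at 0. No MZM-0410 library exceeded 2 counts for it, 210 counts against 8 in all, a ratio of 58.1 (28.9 to 136). By counts of 0 alone, Nfu_g_1_003422 was off in 10 MZM-0410 libraries, Nfu_g_1_012549 and Nfu_g_1_014543 in 8 each, and Nfu_g_1_004257, Nfu_g_1_020078 and Nfu_g_1_020663 in 6 each. Together with 5 more, the 3 genes made up 8 that never exceeded 3 counts in an MZM-0410 library.

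A pair of genes mixed off and on fish within MZM-0410. Nfu_g_1_005709 was at 8.06, 5.41, 7.05 and 14.5 CPM in GRZ. Among MZM-0410 fish it was at 0, 0.364, 0.864 and 1.31 CPM at 5 wph, at 1.28, 0.846, 0.685 and 0.692 CPM at 12 wph, and at 0.362, 0.484, 0.459 and 0.572 CPM at 39 wph. The fish at 0 was in the library with the fewest counts, where 0 allows up to 0.763 CPM, and that limit lies above most of the other MZM-0410 values. Nfu_g_1_012011, at 3.29, 3.81, 2.44 and 2.24 CPM in GRZ, was at 0 in that same library, at 1.08 CPM in another 5 wph fish and between 0.274 and 0.971 CPM in the remaining 10. No gene was split between MZM-0410 fish at GRZ level and fish at 0, since the rule kept every MZM-0410 fish under the GRZ range.

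Whether the 28 genes changed with age in MZM-0410 was asked between each pair of ages, a contrast that the choice of genes did not use directly, although it capped every MZM-0410 level. Of the 28, 0 were called higher and 0 lower at a later age in each comparison by the edgeR quasi-likelihood test with Benjamini-Hochberg adjustment over all genes tested (adjusted p under 0.05). The same test called 6.6% of all genes tested between 5 and 12 wph (4.46% higher and 2.14% lower at 12 wph), 9.64% between 12 and 39 wph (3.89% higher and 5.75% lower at 39 wph) and 24.9% between 5 and 39 wph (12.3% higher and 12.6% lower at 39 wph). Most of the 28 had too few counts to enter it. The filter on low counts passed 3, 5 and 4 of them in those comparisons, and 0, 1 and 0 had an unadjusted p under 0.05, against 21.3%, 26.7% and 37.2% of all genes tested. DESeq2 also called 0 in each comparison, with an adjusted p for 3, 3 and 5 genes and an unadjusted p under 0.05 for 0, 0 and 1. The share of all genes called by DESeq2 was not computed, so these counts cannot be set against a general rate.

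Of the genes with enough counts, the pair drawing most reads differed little in level between ages. Nfu_g_1_000069 differed by -0.12 ± 0.08 (SE) on the log2 scale between 5 and 12 wph (edgeR adjusted p = 0.447), by 0.20 ± 0.09 between 12 and 39 wph (0.174) and by 0.07 ± 0.07 between 5 and 39 wph (0.538). Nfu_g_1_011003 differed by 0.18 ± 0.11, 0.05 ± 0.08 and 0.22 ± 0.10 in the same order (edgeR adjusted p = 0.373, 0.758 and 0.137). The gap between strains was chosen by the rule and is no measure for these steps. Nfu_g_1_013240 had larger differences and larger errors, at 0.21 ± 0.32, -0.47 ± 0.21 and -0.26 ± 0.32 (edgeR adjusted p = 0.761, 0.188 and 0.582). Nfu_g_1_015870, at 5.79, 7.52, 4.23 and 4.81 CPM in GRZ, differed by 0.40 ± 0.32 between 12 and 39 wph and by 0.82 ± 0.42 between 5 and 39 wph (edgeR adjusted p = 0.466 and 0.182). Nfu_g_1_018058 passed the filter only between 12 and 39 wph, where it differed by 0.58 ± 0.39 (edgeR adjusted p = 0.384).

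Without the filter all 28 genes entered the fit, which then called 4.81%, 7.02% and 19% of genes in the same order. Log2 differences were positive for 21 and negative for 7 of the 28 between 5 and 12 wph, 12 and 16 between 12 and 39 wph, and 16 and 12 between 5 and 39 wph, with medians of 0.37, -0.18 and 0.23. An unadjusted p under 0.05 was found for 1, 2 and 1 of them, against 17.9%, 22.5% and 31.5% of all genes. In means over fish, 15 genes were highest at 12 wph, 10 at 39 wph and 3 at 5 wph. The mean rose at both steps for 6 genes and fell at both for 1. These signs and rankings are given without a share over all genes and are not read as a trait of the 28. Most of the 28 had low counts, and most libraries at 5 wph were shallower than those of the later ages.

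The single call of the unfiltered fit was Nfu_g_1_018058, which is singled out because of its values. It was at 0.509, 0.485, 0.432 and 0.653 CPM at 5 wph, at 1.10, 0.317, 1.23 and 1.52 CPM at 12 wph, and at 1.81, 1.21, 1.49 and 1.49 CPM at 39 wph. The fish of 5 and 39 wph did not overlap, and those of 12 wph spanned both. The levels at 5 wph rest on 2, 4, 2 and 3 counts, against 15, 10, 13 and 13 counts at 39 wph. In those 5 wph libraries a count of 0 allows up to 0.364 to 0.763 CPM, so these levels lie near that limit. The share of all genes without overlap between these ages was not computed. The log2 difference between 5 and 39 wph was 1.53 ± 0.39 (edgeR without a filter, adjusted p = 0.0143), and 1.53 in 1 fit over the 12 MZM-0410 libraries (adjusted p = 0.0204). Between 5 and 39 wph the gene fell below the filter in the fit as planned and was not tested there, and DESeq2 gave an unadjusted p of 0.0139 with no adjusted p. With the filter it entered the fit when any 1 library of 5 wph or replicate 8 of 39 wph was left out (log2 difference 1.46 to 1.64, edgeR adjusted p = 0.00984 to 0.0309), and not without replicate 6, 9 or 10 of 39 wph. At 39 wph its mean was 7.24-fold under that of GRZ at 5 wph, against 20.9-fold at 5 wph and 10.4-fold at 12 wph. The rule kept it under GRZ at every age.

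The 28 genes were scattered over the gene order of the table, with a few close pairs. Rows of the table mostly follow the genome. Of named genes in adjacent rows that could be placed in RefSeq, 294 of 354 pairs (83.1%) lay within 10 genes of each other. Of pairs taken 1000 rows apart, 0 of 190 did. Among the 28 genes, neighbours in this order were a median of 551 rows apart, and 20 had no other of the 28 within 3 rows. The other 8 formed 4 pairs. Nfu_g_1_014542 with Nfu_g_1_014543 and Nfu_g_1_005709 with Nfu_g_1_005947 were in adjacent rows, Nfu_g_1_011003 with Nfu_g_1_024358 were 2 rows apart, and Nfu_g_1_000069 with Nfu_g_1_000067 were 3 rows apart.

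Within the adjacent pairs the same GRZ fish was highest, for 1 gene on few counts. Nfu_g_1_005947 was at 6.25, 3.31, 6.58 and 14.2 CPM in the 4 GRZ libraries, where Nfu_g_1_005709 was at 8.06, 5.41, 7.05 and 14.5 CPM. Nfu_g_1_014542 was at 4.43, 2.91, 3.29 and 5.82 CPM, and Nfu_g_1_014543 at 1.14, 1.70, 0.751 and 2.46 CPM. The levels of Nfu_g_1_014543 rest on 10, 17, 8 and 22 counts. GRZ library 4 was the highest for all 4 of these genes, as it was for 9 of the 28. The order of the remaining GRZ libraries differed within each pair. Counting ignored the strand of the reads, so an overlapping or antisense gene can share reads with its neighbour, and whether adjacent identifiers are parts of 1 transcript was not tested.

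Within the other pairs the gap between the strains differed from gene to gene. Nfu_g_1_024358, at 7.04, 8.42, 9.58 and 7.83 CPM in GRZ, was at 0.572 to 1.96 CPM in MZM-0410, a ratio of means of 6.71 beside 2.61 for Nfu_g_1_011003. Nfu_g_1_000067, at 3.07, 4.01, 3.10 and 3.58 CPM in GRZ, was at 0 to 0.728 CPM in MZM-0410, a ratio of 9.23 beside 2.59 for Nfu_g_1_000069.

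Genes next to the 28 in row order, which the rule did not choose, were mostly alike in the strains. Among the directly adjacent ones, a GRZ level higher by the bound used below was more frequent than among all genes. The check of row order used named genes, and none of the 28 has a name. Whether a gene in an adjacent row lies nearby in the genome was therefore not checked for the 28. Of 32 directly adjacent genes with a mean of at least 1 CPM, 6 (18.8%) had a log2 ratio of mean GRZ to mean MZM-0410 above 0.5, computed with a pseudocount of 0.5 CPM, and 1 (3.13%) was below -0.5. Their median was 0.07, and 1 of the 6, Nfu_g_1_011636, lay at 0.50005, just past the bound. That gene was at 36.6 to 43.7 CPM in GRZ and 23.4 to 34.7 CPM in MZM-0410, with no overlap. No share of all genes without overlap between the strains is given here. Within 5 rows the share above 0.5 was 6.54% (10 of 153), and among all genes but the 28 with that mean 4.54% (833 of 18361) were above 0.5 and 5.63% were below -0.5. These shares are a description, since adjacent genes are not independent.

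Among adjacent genes with a mean of at least 1 CPM, the largest log2 ratio was that of Nfu_g_1_018045, next to Nfu_g_1_018058. It was at 16.1, 10.8, 11.4 and 28.9 CPM in GRZ and at 0.731 to 7.67 CPM in MZM-0410, with no overlap and a log2 ratio of 2.34. In MZM-0410 it was at 1.53, 3.28, 3.24 and 2.61 CPM at 5 wph and at 0.731, 2.43, 7.67 and 5.54 CPM at 12 wph. At 39 wph it was at 2.53, 1.69, 2.29 and 1.37 CPM. Its fish of 5 and 39 wph overlapped, unlike those of its neighbour, and its age change was not tested. Nfu_g_1_000031, next to Nfu_g_1_000069, was at 7.42 to 11.02 CPM in GRZ and 0.959 to 5.40 CPM in MZM-0410, and Nfu_g_1_013280, next to Nfu_g_1_013240, was at 14.8 to 18.4 CPM and 3.09 to 8.77 CPM. Beside Nfu_g_1_003422, by contrast, Nfu_g_1_003420 overlapped between the strains, at 1.14, 32.0, 1.22 and 2.01 CPM in GRZ and up to 11.04 CPM in MZM-0410, so that 1 GRZ fish set its log2 ratio of 1.58. Nfu_g_1_020063, next to Nfu_g_1_020078, was left out by its low mean, at 0.775 CPM in GRZ and 0 in MZM-0410.

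**Figure D4:**
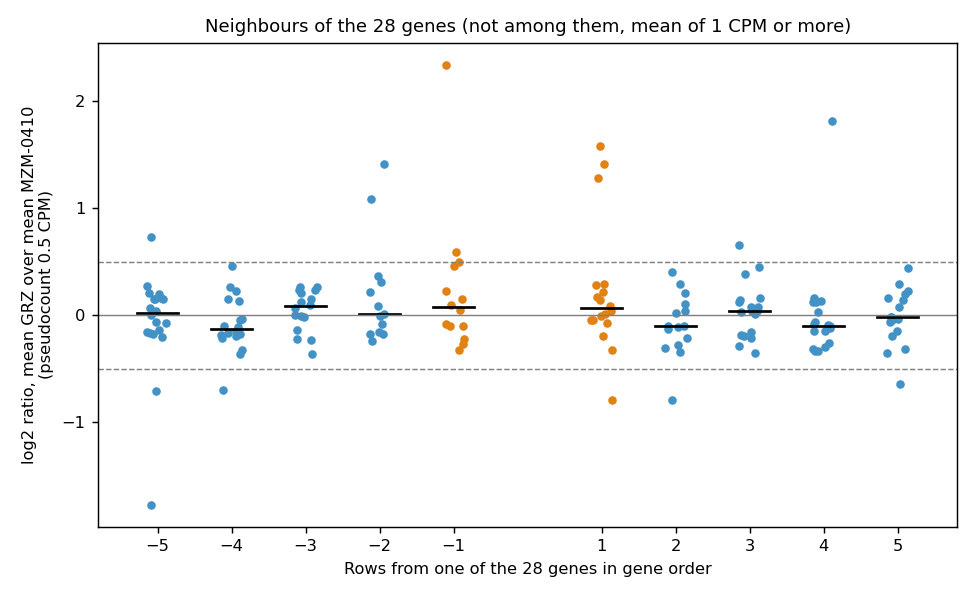
Log2 ratio of mean GRZ to mean MZM-0410 level (pseudocount 0.5 CPM) of genes 1 to 5 rows before or after one of the 28 genes in gene order, leaving out the 28 and genes with a mean under 1 CPM, with a black bar for the median at each distance, orange for adjacent genes and dashed lines at 0.5 and -0.5. Medians lie near 0, and 6 of the 32 adjacent genes (18.8%) are above 0.5, against 4.54% of all other genes with a mean of at least 1 CPM.

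Markers of other cell types were read beside these levels. Of 116 marker symbols in 11 lists for brain cells and for tissues that may come with a dissected brain, 44 had a named gene. At 5 wph, the age that the strains share, the summed levels did not overlap in 3 lists, with GRZ higher in 2 and lower in 1, and overlapped in 8. Neuron markers summed to 4700 to 4821 CPM in GRZ and 4919 to 5032 CPM in MZM-0410 at 5 wph. Endothelium markers summed to 248 to 304 CPM and 174 to 210 CPM, and the 1 named photoreceptor and pineal gene was at 1.805 to 98.9 CPM and 0.121 to 0.763 CPM. In 0 of the 11 lists were the 4 GRZ libraries all above or all below the 12 MZM-0410 libraries of the 3 ages together. Skeletal muscle markers summed to 101 to 178 CPM in GRZ and 26.8 to 137 CPM in MZM-0410 at 5 wph, with overlap. In MZM-0410 they summed to 7.13 to 116 CPM at 12 wph and 4.00 to 7.11 CPM at 39 wph, ages without GRZ. The only marker genes at 0 in all libraries of a group were copies of HBG1, a haemoglobin gene of red blood cells. The part of these tissues in the levels of the 28 genes was not tested.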

How the data were processed

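The authors mapped the reads with TopHat2 2.1.0 to annotated transcripts of the N. furzeri genome, keeping reads with 1 transcript hit, and counted them per gene with featureCounts 1.5.0 without regard to strand, after bcl2fastq 1.8.4. The deposited table holds raw counts of 26739 genes in 16 libraries. Reads that fit several gene copies were thus discarded, which can lower duplicated genes.

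CPM used the column totals. Age tests used edgeR 4.0.16 (TMM, filterByExpr, quasi-likelihood test, two-sided) in R 4.3.3 on the 8 libraries of each pair of ages, with p-values adjusted over all genes tested. DESeq2 1.42.0, other scalings, no filter, thinning to the smallest library, 1 fit over 12 libraries, stricter rules and leaving out each library were alternatives. Counting intervals (exact, 95%) cover counting error only. Separate fish are taken as replicates as labelled, and none of the 24 pairs of libraries within a group was alike within sampling noise.

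The genes described, the lists and the tests were chosen with earlier results of these data known. Up to 12 genes without a name were to be given by identifier, by mean GRZ level, strain gap, off and on pattern or nearness to the threshold. Further identifiers were given after their values were seen. The genes meeting the rule exclude 2 identifiers that were left out at the start. Columns of other samples numbered 0.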

Additional observations from a re-analysis of the deposited data

Results flagged for a closer look

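Among 56 gene and group combinations with a mean count of at least 5, 5 had 1 library far from the 3 others of its group, where chance flags about 1 in 20 groups (5%). Nfu_g_1_000069 was at 47.1 CPM in MZM-0410 12 wph replicate 3, against 39.0 to 39.3 CPM in the others. Nfu_g_1_011637 was at 4.25 CPM in MZM-0410 12 wph replicate 4, against 0.692 to 0.741 CPM. Nfu_g_1_019312 was at 0.917 CPM in MZM-0410 39 wph replicate 9, against 0.572 to 0.605 CPM, which is 8 counts against 5 in each other library. Nfu_g_1_015870 was at 0.801 CPM in MZM-0410 39 wph replicate 10, against 1.81 to 1.95 CPM. Nfu_g_1_019715 was at 5.79 CPM in GRZ 5 wph replicate 1, against 4.51 to 4.70 CPM. The 5 values fell in 5 different libraries.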

How the results depend on the processing

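The number of genes meeting the rule was 28 as reported, 30 with TMM-scaled CPM (28 kept) and 24 after thinning every library to the total of the smallest (23 kept). It was 17 with a fold of 3 and 14 with a mean GRZ level of 5 CPM, both stricter by construction. Leaving out each library in turn gave 28 to 34 genes, with all 28 kept each time, which the rule fixes for the fold, since fewer libraries can only loosen it. Genes at 0 in all 12 MZM-0410 libraries numbered 0, and 1 with thinned counts, which hold fewer reads. Genes higher at 39 than 5 wph numbered 0, and 1 both without the filter and in 1 fit over the 12 MZM-0410 libraries, which is Nfu_g_1_018058 in each case, and 0 to 1 when each library was left out. The other 5 counts of age calls were 0 under every alternative, and 0 to 0 when each library was left out. Of the age differences of single genes, 150 kept their direction and their side of the threshold and 3 reversed. Leaving out each library in turn, the log2 difference of Nfu_g_1_013240 ran from -0.0125 (without MZM-0410 5 wph replicate 14) to 0.60 between 5 and 12 wph, and from -0.49 to 0.12 (without 5 wph replicate 12) between 5 and 39 wph. That of Nfu_g_1_011003 ran from -0.00598 (without 12 wph replicate 4) to 0.0806 between 12 and 39 wph. The cause of these reversals was not tested. No paired analysis was possible because the age groups share no replicate number. Depth and low levels in MZM-0410, the only strain in the age tests, limit them: 3 to 5 of the 28 entered a filtered age test.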
